A study of Mus musculus with 18 samples.

Results

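The small intestine of male mice given simvastatin after abdominal irradiation was compared with that of unirradiated male control mice. The comparison takes the 3 libraries labelled MT and the 3 libraries labelled Mcon, 6 of the 18 libraries of the series, and describes 11767 genes of the 21928 gene symbols in the table. A gene was taken if it reached 1 FPKM in at least 3 of the 18 libraries. FPKM are fragments divided by transcript length and by the mapped fragments of the library, and the transcripts of a symbol were summed. Simvastatin is a statin, a drug that lowers the synthesis of cholesterol, and abdominal irradiation damages the dividing cells of the intestinal crypts, from which the absorptive epithelium of the villi is renewed. The differentiated enterocytes of the villi take up sugars, amino acids, phosphate and bile acids, and many of their transporters are known to follow the daily rhythm set by the circadian clock.

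Every mouse was a wild-type C57BL/6 animal, and small intestine was the labelled tissue. The control mice (Mcon) received neither irradiation nor drug, the mice labelled MTAI received 12 Gy of total abdominal irradiation (TAI) alone, and the mice labelled MT received the same TAI and then simvastatin by mouth, with tissue taken at day 21. None of the 6 groups of the series received simvastatin without irradiation. The parts of the drug and of the irradiation in the MT minus Mcon difference were thus separated only by setting MT against MTAI. Female control mice (Fcon) and irradiated female mice on a high-fat diet (Ffat) served for a further contrast, in which sex and treatment cannot be told apart. The age of the mice, the dose of simvastatin and the hour of tissue collection are not given in the sources used here. Beyond their labels nothing says how far the 3 samples of a group were handled apart. The p-values thus measure the spread between samples within groups, pooled over all 6 groups of the series.

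The deposited FPKM hold no read totals. The depth of the 6 libraries, estimated from the steps between low FPKM values, lay between 1 and 1.27 times that of control replicate 1, and 10732 to 11415 genes reached 1 FPKM in them. Markers of the Y chromosome reached at least 5.47 FPKM in every male library and at most 0.0205 FPKM in every female one. The enterocyte markers summed to between 20600 and 25100 FPKM in the 6 libraries, whereas the markers of exocrine pancreas summed to at most 7.54 FPKM. Of 17 distal and 18 proximal small intestine markers, 13 and 14 entered the test. The distal Fabp6, Slc10a2 and Fgf15 did not, at 15.64, 1.242 and 1.839 FPKM at most in any of the 18 libraries. Nor did the proximal Pdx1 (0.4535 FPKM at most). Which segment of the intestine the libraries hold was not tested. Control replicate 3 stood apart in its content of other cells, with the lowest summed level of macrophage markers (32.6 FPKM, against at least 79.2 FPKM in the other 5 libraries) and of endothelial markers (14.1 FPKM, against 23.5 to 43.5 FPKM). Smooth muscle markers summed to 754 to 969 FPKM in control libraries and to 670 to 744 FPKM in MT libraries. In whole tissue, fewer cells of a type and less RNA per cell cannot be told apart.

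After TAI and simvastatin, 323 genes (2.74% of the genes tested) were higher and 309 (2.63%) were lower than in control mice at an adjusted p under 0.05. All p-values are adjusted by the Benjamini-Hochberg method over all 11767 genes and come from 1 limma model of the 18 libraries on the log2(FPKM + 1) scale, on which the change of a gene with low FPKM is understated. The split between higher and lower genes was 459 to 268 when the libraries were quantile normalized and 369 to 179 when they were scaled by median ratios. The median log2 fold change was −0.07 over all genes and 0.58 in absolute size over the called genes, of which 64 rose and 42 fell by at least 1. The ranges of the 2 groups did not overlap in 319 of the 323 higher genes and in all 309 lower ones, where the groups did not overlap in 8.85% of all genes tested with MT higher and in 16.6% with MT lower. The 5 largest rises were those of Dbp (3.58), Sult6b2 (3.31), Per3 (2.57), Tef (2.38) and Per2 (2.35). The 5 largest falls were those of Slc34a2 (−3.26), Tmem252 (−2.27), Arntl (−2.23), Rsad2 (−1.67) and Isg15 (−1.60).

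Genes of the circadian clock held 4 of the 5 largest rises. In the mammalian clock CLOCK or NPAS2 pairs with BMAL1, the product of Arntl, and the pair binds E-boxes of the Period and Cryptochrome genes, whose proteins then repress it. REV-ERB proteins repress Arntl through a second element, and the proteins DBP, TEF and HLF carry the rhythm to output genes through the D-box, which NFIL3 also binds. The levels of such genes depend on the hour at which tissue is taken.

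Of 14 genes of the core clock loop, 7 were called higher, 2 lower and 5 neither, with a median log2 fold change of 0.50. Of 11 clock output genes tested, 8 were called higher, 1 lower and 2 neither, with a median of 1.21. In both lists the higher members make up a larger share than the 2.74% over all genes.

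The promoter windows of 5 of these genes are shown because they hold the elements named above, and 4 of them are the members with the smallest p-values that held any. Each window runs from 250 bases before to 50 bases after the RefSeq transcription start, 5′ to 3′ on the gene's strand in build GRCm38.p6. Capitals mark the E-box (CACGTG) in Per1, Tef and Ciart, the D-box (TTATGTAA) in Per3 and the REV-ERB element (TAGGTCA) in Arntl, each searched on both strands. The windows lie at chr4:151044616-151044915 on the minus strand (Per3), chr15:81802423-81802722 on the plus strand (Tef), chr11:69098699-69098998 on the plus strand (Per1), chr3:95882179-95882478 on the minus strand (Ciart) and chr7:113207261-113207560 on the plus strand (Arntl).
Per3: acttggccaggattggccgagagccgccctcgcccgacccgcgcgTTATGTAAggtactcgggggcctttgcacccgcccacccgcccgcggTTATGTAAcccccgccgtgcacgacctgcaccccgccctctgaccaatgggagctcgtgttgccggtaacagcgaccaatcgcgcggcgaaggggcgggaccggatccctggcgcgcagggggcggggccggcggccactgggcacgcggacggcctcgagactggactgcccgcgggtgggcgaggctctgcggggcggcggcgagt
Tef: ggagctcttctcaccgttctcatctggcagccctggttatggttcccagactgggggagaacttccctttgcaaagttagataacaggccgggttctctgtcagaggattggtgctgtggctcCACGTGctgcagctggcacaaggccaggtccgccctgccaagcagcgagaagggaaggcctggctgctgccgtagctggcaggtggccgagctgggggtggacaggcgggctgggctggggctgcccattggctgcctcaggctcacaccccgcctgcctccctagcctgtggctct
Per1: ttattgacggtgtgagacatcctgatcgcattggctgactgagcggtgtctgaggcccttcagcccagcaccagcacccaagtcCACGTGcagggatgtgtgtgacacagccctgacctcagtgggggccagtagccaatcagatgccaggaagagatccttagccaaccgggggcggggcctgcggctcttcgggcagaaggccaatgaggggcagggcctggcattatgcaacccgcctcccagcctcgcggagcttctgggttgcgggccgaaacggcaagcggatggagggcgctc
Ciart: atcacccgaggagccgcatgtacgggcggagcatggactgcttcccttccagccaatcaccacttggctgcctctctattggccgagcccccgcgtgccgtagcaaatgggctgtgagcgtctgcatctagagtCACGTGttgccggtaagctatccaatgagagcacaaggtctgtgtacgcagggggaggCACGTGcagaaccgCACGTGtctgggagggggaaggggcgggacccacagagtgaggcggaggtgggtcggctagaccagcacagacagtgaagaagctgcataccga
Arntl: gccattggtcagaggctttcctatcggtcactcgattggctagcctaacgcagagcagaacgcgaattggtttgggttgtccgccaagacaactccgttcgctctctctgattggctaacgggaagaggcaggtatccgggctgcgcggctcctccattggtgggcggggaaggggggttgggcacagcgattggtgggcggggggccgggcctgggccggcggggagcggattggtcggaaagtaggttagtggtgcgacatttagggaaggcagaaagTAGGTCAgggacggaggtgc
The Per3 window held 2 D-boxes, the Ciart window held 3 E-boxes, and the others held 1 element each. Over all 32851 windows, 7.15% held the E-box, 0.938% the D-box and 2.61% the REV-ERB element. Among the tested genes with a window, the E-box was in 16.8% of the 250 that rose, in 9.88% of the 253 that fell and in 11.6% of all 9175. The REV-ERB element was in 1.6% of the genes that rose and in 4.35% of those that fell. Of 14 called clock genes with a window, 3 held an E-box, 1 a D-box and 2 a REV-ERB element. A match describes the letters of the window and is not a measurement of binding.

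The Period genes encode the repressors of the clock. Per3 stood at 1.23, 1.18 and 0.991 FPKM in control replicates 1, 2 and 3 and at 10.5, 11.4 and 13.1 FPKM after TAI and simvastatin. All 3 treated libraries were thus several times above every control library (log2 fold change 2.57, standard error 0.18, adjusted p = 1.25e-06). Per2 was at 2.46, 2.48 and 2.85 FPKM in control mice and at 17.2, 14.9 and 20.4 FPKM in treated mice (2.35, standard error 0.18, adjusted p = 3.52e-06). Per1 was at 3.00, 2.64 and 2.55 FPKM against 10.5, 11.6 and 13.3 FPKM (1.78, standard error 0.16, adjusted p = 8.94e-06). No control library reached any treated library in either gene. Cry2, which encodes a Cryptochrome partner of the Period proteins, rose from 2.79 to 3.34 FPKM to 7.34 to 8.53 FPKM (1.09, adjusted p = 6.59e-05).

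Of the activators of the loop, Arntl and Npas2 fell and Clock did not pass the test. Arntl was at 17.0, 13.4 and 19.5 FPKM in control mice and at 2.68, 3.40 and 2.19 FPKM in treated mice, so that the groups were far apart (−2.23, standard error 0.25, adjusted p = 6.71e-05). Npas2, a partner of BMAL1, fell from 31.8, 26.9 and 35.4 FPKM to 14.3, 14.8 and 12.9 FPKM (−1.10, adjusted p = 0.00192). Clock, the other partner, was at 19.5 to 26.5 FPKM in control libraries and at 20.2 to 23.4 FPKM in treated ones (−0.09, adjusted p = 0.76). Among the nuclear receptors of the loop, Nr1d2, which encodes REV-ERBβ, rose from 10.8 to 14.7 FPKM to 34.0 to 39.2 FPKM (1.38, adjusted p = 3.13e-05). Nr1d1, which encodes REV-ERBα, rose by 0.79 (adjusted p = 0.0274), and that call was lost without any 1 of MT replicates 2 and 3 and control replicates 2 and 3 (adjusted p of 0.0724, 0.121, 0.0831 and 0.0945). Cry2, Npas2 and Wee1 lie outside the rule for named genes and were chosen after their values were seen, as were Nr1d1, Clock, Bhlhe40, Nampt and Nfil3.

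The output genes held the largest rise of all genes tested. Dbp, a PAR-domain activator of D-box genes, was at 3.95, 4.01 and 3.35 FPKM in control mice and at 46.3, 55.8 and 67.3 FPKM in treated mice (3.58, standard error 0.32, adjusted p = 8.94e-06). Its mean thus went from 3.77 ± 0.366 to 56.5 ± 10.5 FPKM (SD, n = 3), and the groups were far apart. Tef, a second PAR-domain activator, was at 5.86, 5.53 and 4.50 FPKM against 30.1, 30.0 and 35.2 FPKM (2.38, standard error 0.17, adjusted p = 1.25e-06). Hlf, the third of that family, rose from 0.509 to 0.697 FPKM to 3.06 to 3.82 FPKM (1.49, adjusted p = 2.27e-05). Ciart, a repressor of CLOCK and BMAL1, was at 0.0520, 0.0968 and 0.0871 FPKM in control libraries and at 2.6, 3.46 and 4.01 FPKM in treated ones (2.0, adjusted p = 0.000138). Usp2, a deubiquitinase with a strong daily rhythm, rose by 1.21 (adjusted p = 6.76e-05) and Wee1, the kinase that holds back entry into mitosis, by 1.35 (adjusted p = 0.000304). The remaining calls were less firm. Bhlhe40, a repressor of E-box genes, rose by 0.74 (adjusted p = 0.0102, and 0.0561 without MT replicate 3 and 0.0533 without control replicate 2), and Nampt, which makes the precursor of NAD, rose by 0.46 (adjusted p = 0.0125, and 0.0748 without MT replicate 1 and 0.0536 without control replicate 1). Nfil3, the repressor of D-box genes, fell by 0.98 (adjusted p = 0.0191, and 0.0826 without MT replicate 2, 0.0638 without control replicate 1 and 0.0785 without control replicate 3).

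The mice exposed to TAI alone were on the same side of control mice for these genes. The changes of MT and of MTAI are both taken from the same 3 control libraries, so their likeness is not independent, and the values are given side by side. Dbp was 3.15 above control after TAI alone on the log2 scale, Per3 was 2.07 above, Tef was 2.01 above and Arntl fell by 1.49. Between MT and MTAI themselves Dbp differed by 0.43 (adjusted p = 0.49), Per3 by 0.50 (adjusted p = 0.267), Tef by 0.37 (adjusted p = 0.329) and Arntl by −0.73 (adjusted p = 0.243), and none of these differences passed the test. Across all genes, 9 (0.0765%) were higher and 73 (0.62%) were lower in MT than in MTAI, and no member of the 2 clock lists was among them, whereas 3 core clock genes were higher in MT than in MTAI when MTAI replicate 3 was left out. The hour of collection is not known for any group, and its part in the clock differences was not tested.

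Transporters of several lists changed. Among the phosphate carriers, Slc34a2, a sodium phosphate cotransporter, was at 242.7, 149.98 and 171.5 FPKM in control mice and at 20.9, 24.8 and 11.7 FPKM in treated mice. Every treated library lay far below the lowest control library (−3.26, standard error 0.41, adjusted p = 0.000202). Slc17a4, a further anion transporter of the apical membrane, fell from 31.4 to 42.7 FPKM to 12.001 to 14.3 FPKM (−1.39, adjusted p = 7.55e-05), whereas Slc20a1, a phosphate carrier found in most cells, rose from 4.66 to 5.56 FPKM to 9.34 to 12.7 FPKM (0.92, adjusted p = 0.00334). Of 15 genes of ion and phosphate transport, a list without Slc17a4, 4 rose and 1 fell. Their median log2 fold change was −0.01. Over all genes tested 2.74% rose and 2.63% fell.

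The carriers of carboxylates, sulfate and vitamins rose more often than they fell. Slc13a2, which takes up citrate and succinate, was at 36.4, 33.2 and 33.0 FPKM in control libraries and at 148, 131 and 166 FPKM in treated ones (2.08, standard error 0.17, adjusted p = 3.52e-06). Slc13a1, the sulfate transporter, was at 9.60, 12.9 and 14.8 FPKM against 69.1, 69.98 and 49.9 FPKM (2.26, standard error 0.29, adjusted p = 0.000304). Treated and control libraries did not overlap in either gene. Slc5a12, a lactate and short-chain monocarboxylate carrier, rose from 59.4 to 67.7 FPKM to 106 to 112 FPKM (0.75, adjusted p = 0.00132), and Slc23a1, a vitamin C carrier, rose from 16.3 to 20.6 FPKM to 30.4 to 33.8 FPKM (0.76, adjusted p = 0.00191). In this list 5 of 12 genes rose and 1 fell, with a median of 0.12, where 2.74% of all genes rose and 2.63% fell.

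Several carriers of peptides, sugars and amino acids were also higher. Slc15a1, the peptide transporter PEPT1, was at 337, 289 and 276 FPKM in control mice and at 468, 506 and 467 FPKM in treated mice (0.68, adjusted p = 0.00128). Slc5a1, the sodium glucose transporter SGLT1, was at 849, 890 and 767 FPKM against 1500, 1452 and 1479 FPKM (0.82, adjusted p = 0.00356). Every treated library was above every control library for both. Slc6a19, the main carrier of neutral amino acids of the brush border, rose by 0.71 (adjusted p = 0.00294), and the amino acid carriers Slc7a8 and Slc7a15 rose by 0.65 (adjusted p = 0.00391) and 0.60 (adjusted p = 0.00419). Slc2a5, the fructose transporter, rose from 26.9 to 29.9 FPKM to 67.0 to 84.5 FPKM (1.33, adjusted p = 0.00174), whereas Slc2a2, the basolateral hexose transporter, did not pass the test at 96.0 to 114 FPKM against 165 to 206 FPKM (0.78, adjusted p = 0.0881).

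Atp1b1, the β subunit of the sodium pump of the basolateral membrane, was at 728, 792 and 752 FPKM in control libraries against 1159, 1108 and 1144 FPKM (0.59, adjusted p = 0.00191), and the groups did not overlap. Of 15 genes of amino acid and peptide transport, 7 rose and none fell (median 0.30), and of 22 enterocyte markers 6 rose and none fell (median 0.15). Over all genes tested 2.74% rose and 2.63% fell. No called transporter named above lost its call when any 1 library was left out. The list counts were less firm. The 7 amino acid and peptide genes became 5 without MT replicate 3. Without MT replicate 1, the 5 carboxylate and vitamin genes that rose became 4 and the 1 that fell became 0. The 4 ion and phosphate genes that rose became 3 and the 6 enterocyte markers became 5 without the same library. Side by side, the change after TAI alone was 1.76 for Slc13a2, 1.57 for Slc13a1, 0.54 for Slc15a1 and −2.23 for Slc34a2, each past the threshold, and 0.49 for Slc5a1, which was not (adjusted p = 0.12). None of the transporters named here passed the test between MT and MTAI.

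**Figure D1:**
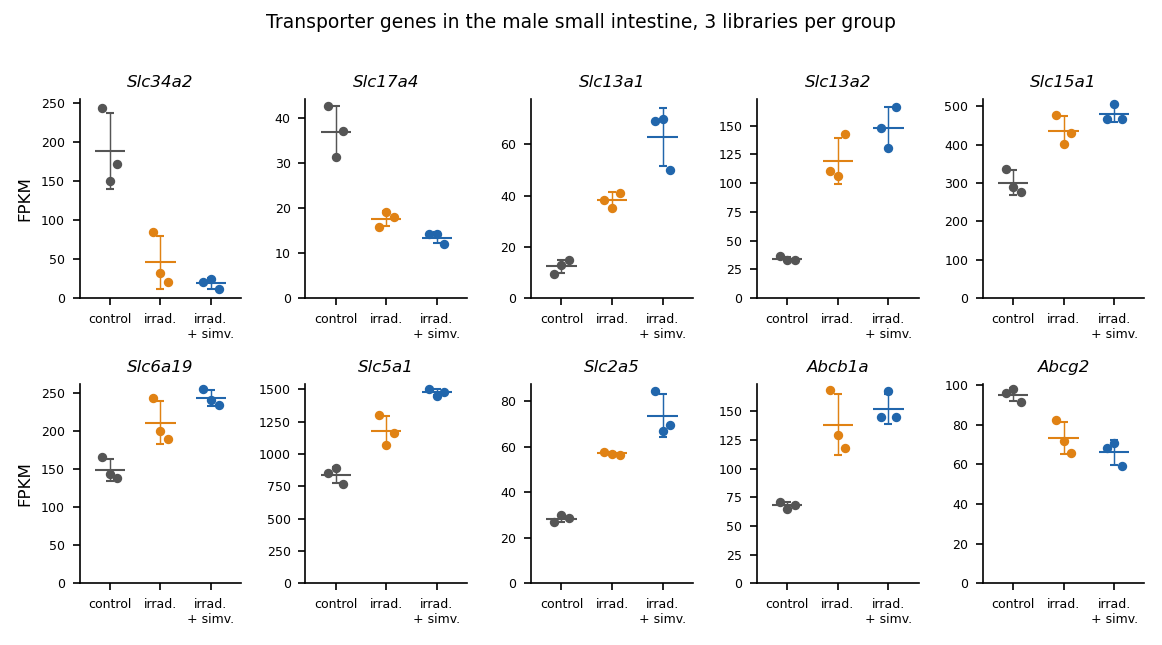
FPKM of nutrient carriers and efflux pumps in male control mice, mice after irradiation and mice after irradiation plus simvastatin. Points are single libraries (n = 3 per group), lines are means and bars are SD; after irradiation plus simvastatin Slc34a2 lay at 11.7 to 24.8 FPKM, below all controls, and Slc13a2 at 131 to 166 FPKM, above all controls.

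Enzymes that handle steroids, drugs and other foreign compounds moved in both directions. Sult6b2, a member of the sulfotransferase family, was at 2.46, 5.54 and 7.30 FPKM in control mice and at 73.6, 55.3 and 42.7 FPKM in treated mice (3.31, standard error 0.48, adjusted p = 0.000731). After TAI alone it was 2.47 above control (adjusted p = 0.0121), and it did not pass between MT and MTAI (0.84, adjusted p = 0.399). Nat8f5, of the N-acetyltransferase 8 family, was at 11.5, 12.5 and 17.3 FPKM against 69.3, 62.4 and 59.9 FPKM (2.15, standard error 0.23, adjusted p = 5.72e-05). The groups did not overlap in either gene. Akr1c14, an aldo-keto reductase that acts on hydroxysteroids, rose from 3.52 to 4.93 FPKM to 9.06 to 20.8 FPKM (1.58, adjusted p = 0.000535), Gsta3, a glutathione transferase, rose from 1.35 to 1.47 FPKM to 3.34 to 5.91 FPKM (1.17, adjusted p = 0.00471), and Por, the reductase that supplies electrons to cytochromes P450, rose from 42.0 to 56.6 FPKM to 76.9 to 104 FPKM (0.93, adjusted p = 0.00307).

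Among 13 steroid-converting enzymes 3 rose and 2 fell, with a median of 0.04, where 2.74% of all genes rose and 2.63% fell. The 3 that rose became 1 without MT replicate 1, without control replicate 3, with the compared groups alone or with the replicate block. After TAI alone 2 of the 13 rose and 1 fell, where 1.2% of all genes rose and 0.901% fell. None of the 13 passed the test between MT and MTAI. Hsd17b2, which oxidizes estradiol and testosterone to their less active ketones, was at 36.2, 30.4 and 34.0 FPKM in control libraries and at 13.8, 14.8 and 11.5 FPKM in treated ones (−1.27, standard error 0.12, adjusted p = 1.85e-05). Hsd17b6, a retinol and hydroxysteroid dehydrogenase, fell from 65.7 to 77.9 FPKM to 28.5 to 39.3 FPKM (−1.10, adjusted p = 0.00109), and Hsd3b3, of the 3β-hydroxysteroid dehydrogenase family, rose from 2.48 to 3.79 FPKM to 6.13 to 7.23 FPKM (0.85, adjusted p = 0.000304). Aadac, an esterase of the endoplasmic reticulum, fell from 52.1 to 69.2 FPKM to 21.8 to 38.5 FPKM (−1.16, adjusted p = 0.0057). Members of the Hsd3b and Sult families share sequence, and how the authors' counting divided such reads is not given.

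Of 9 ABC efflux transporters 2 rose and 1 fell, where 2.74% of all genes rose and 2.63% fell. After TAI alone 2 of the 9 rose and none fell, where 1.2% of all genes rose and 0.901% fell. None of the 9 passed the test between MT and MTAI. Abcb1a, which encodes P-glycoprotein of the apical membrane, was at 71.0, 65.0 and 68.4 FPKM in control mice and at 145, 167 and 145 FPKM in treated mice (1.15, standard error 0.15, adjusted p = 0.000304). Its near copy Abcb1b stood far lower, at 1.86 to 2.18 FPKM against 4.13 to 4.55 FPKM (0.81, adjusted p = 0.000496), and reads shared by the pair make its value uncertain. Abcg2, an efflux pump for urate and many drugs, fell from 91.4 to 97.9 FPKM to 58.9 to 70.9 FPKM (−0.52, adjusted p = 0.00438).

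Of 12 glucocorticoid target genes 5 rose and none fell, with a median of 0.80, and 2 rose when MT replicate 1, MT replicate 3 or control replicate 3 was left out. Over all genes tested 2.74% rose and 2.63% fell. After TAI alone 4 of the 12 rose and none fell (median 0.88), where 1.2% of all genes rose. Between MT and MTAI none passed the test (median 0.01). Tsc22d3, which encodes the glucocorticoid-induced leucine zipper, was at 26.0, 26.9 and 28.3 FPKM in control libraries and at 48.9, 37.4 and 50.3 FPKM in treated ones (0.72, adjusted p = 0.00644). Fkbp5, a co-chaperone of the glucocorticoid receptor, was at 1.87, 2.19 and 1.21 FPKM against 9.65, 8.78 and 11.4 FPKM (2.0, adjusted p = 0.018). The 2 groups were apart in both genes, but the call on Fkbp5 was lost without MT replicate 1 (adjusted p = 0.0604), MT replicate 3 (0.0797) or control replicate 3 (0.0729). Sgk1, a kinase that regulates sodium transport, rose from 25.3 to 33.1 FPKM to 58.0 to 84.5 FPKM (1.20, adjusted p = 0.0188), and Mt1, a metallothionein that binds zinc, rose from 18.7 to 34.7 FPKM to 57.3 to 128 FPKM (1.73, adjusted p = 0.0286). For Sgk1 the adjusted p was between 0.0557 and 0.103 without MT replicate 1, MT replicate 3, control replicate 2 or control replicate 3, and for Mt1 it was between 0.0831 and 0.141 without any 1 of the same libraries.

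Pck1, the phosphoenolpyruvate carboxykinase of gluconeogenesis, was at 30.0, 28.7 and 23.2 FPKM in control mice and at 128, 94.2 and 143 FPKM in treated mice (2.1, standard error 0.25, adjusted p = 0.00014). Of 15 genes of gluconeogenesis and sugar uptake 3 rose and none fell, where 2.74% of all genes rose and 2.63% fell. After TAI alone 2 of the 15 rose, where 1.2% of all genes rose, and none passed the test between MT and MTAI. Of 19 genes of glycolysis and hypoxia 4 rose and none fell. The 4 were 2 without MT replicate 1, without control replicate 3 or with the replicate block. Among them were Bnip3, a mitophagy receptor (1.21, adjusted p = 0.000409), and Pfkl, a phosphofructokinase (0.63, adjusted p = 0.00313). Dgat2, which makes triglyceride, rose from 65.6 to 100 FPKM to 168 to 212 FPKM (1.31, adjusted p = 0.00398). Herpud1, a gene of the unfolded protein response, rose from 31.4 to 39.8 FPKM to 80.9 to 102 FPKM (1.36, adjusted p = 1.28e-05), and Trib3, a target of the stress factor ATF4, rose from 4.50 to 5.0 FPKM to 8.27 to 10.8 FPKM (0.88, adjusted p = 0.00498). Ghrl, which encodes ghrelin of enteroendocrine cells, rose from 2.25 to 3.37 FPKM to 6.28 to 7.40 FPKM (0.98, adjusted p = 0.00106), Cyp27a1, the mitochondrial sterol 27-hydroxylase, rose by 0.92 (adjusted p = 0.00764), and Enpep, the brush border aminopeptidase A, rose by 0.42 (adjusted p = 0.0089).

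Other genes with large falls belong to no described list. Tmem252, a transmembrane protein, was at 8.55, 7.73 and 11.4 FPKM in control libraries and at 0.966, 1.25 and 1.09 FPKM in treated ones (−2.27, adjusted p = 6.59e-05). Dab1, an adaptor of the reelin pathway, was at 37.3, 38.2 and 39.8 FPKM against 13.9, 11.7 and 13.0 FPKM (−1.51, adjusted p = 9.65e-06). No control library came near a treated one in either gene. Bok, a pro-apoptotic member of the BCL-2 family, fell from 4.56 to 7.30 FPKM to 1.20 to 1.63 FPKM (−1.51, adjusted p = 6.34e-05), and Ypel2 fell from 9.06 to 12.1 FPKM to 3.18 to 4.15 FPKM (−1.28, adjusted p = 0.00192). Dab1 was also lower in MT than in MTAI (−0.68, adjusted p = 0.0317).

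Of the 62 lists, the interferon response had the most members that fell. Type I and type III interferons signal through the JAK kinases and the factor ISGF3, which binds the interferon-stimulated response element, and the induced genes encode sensors and effectors against viral RNA. In the intestine they are expressed at a steady low level in the healthy epithelium. Of 22 genes of the list, 12 fell and none rose against control mice, where 2.63% of all genes tested fell, and the median was −0.88 against −0.07 over all genes.

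The promoters of 3 of these genes are shown because each holds the interferon-stimulated response element of the list's regulator. The element was searched on both strands as TTTC, any 2 bases and TTTC again, and capitals mark each match, overlapping matches being joined. The windows are those of RefSeq in build GRCm38.p6, 5′ to 3′ on the gene's strand, at chr5:120907476-120907775 on the minus strand (Oas1a), chr19:34583279-34583578 on the plus strand (Ifit3) and chr4:156200769-156201068 on the minus strand (Isg15).
Oas1a: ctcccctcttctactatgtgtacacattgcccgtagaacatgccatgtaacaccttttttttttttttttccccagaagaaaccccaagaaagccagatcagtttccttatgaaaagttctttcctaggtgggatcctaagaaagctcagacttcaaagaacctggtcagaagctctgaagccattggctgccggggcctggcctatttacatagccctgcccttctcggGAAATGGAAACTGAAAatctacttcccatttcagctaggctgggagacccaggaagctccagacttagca
Ifit3: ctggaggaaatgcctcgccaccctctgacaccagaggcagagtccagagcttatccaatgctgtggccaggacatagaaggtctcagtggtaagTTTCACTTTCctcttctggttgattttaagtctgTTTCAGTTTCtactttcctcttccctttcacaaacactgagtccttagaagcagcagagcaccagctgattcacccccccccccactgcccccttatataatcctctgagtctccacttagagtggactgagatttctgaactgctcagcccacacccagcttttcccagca
Isg15: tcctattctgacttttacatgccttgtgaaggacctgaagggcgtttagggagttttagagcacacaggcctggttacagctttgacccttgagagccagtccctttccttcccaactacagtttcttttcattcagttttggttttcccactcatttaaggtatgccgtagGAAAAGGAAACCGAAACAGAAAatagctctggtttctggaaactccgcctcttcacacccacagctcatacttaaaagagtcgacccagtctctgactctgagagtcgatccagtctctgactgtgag
Oas1a held 2 matches and Isg15 held 3, overlapping and on the opposite strand, and Ifit3 held 2 that lay apart. The element was in 3.44% of all windows, in 9.09% of the windows of the genes that fell and in 4.07% of those of all genes tested. Of 10 called interferon genes with a window, 6 held it.

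Oas1a, which makes the activator of RNase L, was at 34.3, 36.6 and 53.9 FPKM in control mice, at 14.9, 20.9 and 9.93 FPKM after TAI and simvastatin, and at 44.1, 59.0 and 53.9 FPKM after TAI alone. The treated libraries lay below every library of the other groups, and MT was lower than Mcon by 1.42 on the log2 scale (standard error 0.26, adjusted p = 0.00356) and lower than MTAI by 1.76 (adjusted p = 0.00466). Oasl2, of the same family, was at 97.4, 89.7 and 138 FPKM in control libraries, at 43.9, 50.6 and 32.9 FPKM in MT and at 115, 168 and 114 FPKM in MTAI (−1.33 against Mcon, adjusted p = 0.00603, and −1.61 against MTAI, adjusted p = 0.00799). Oas1g fell from 23.2 to 36.5 FPKM to 7.63 to 15.6 FPKM (−1.26, adjusted p = 0.00636). The Oas1 genes lie in 1 cluster of near copies, and their single values are uncertain for that reason. Cmpk2, a mitochondrial nucleotide kinase, was at 32.2, 31.1 and 40.6 FPKM in control mice and at 15.2, 17.4 and 9.13 FPKM in treated mice (−1.29, adjusted p = 0.00157).

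The calls on other members depended on single libraries. Ifi44, an inducible protein of unknown activity, fell from 14.5 to 25.6 FPKM to 3.95 to 7.44 FPKM (−1.48, adjusted p = 0.0129), and its adjusted p was 0.0806 without MT replicate 3 and 0.0696 without control replicate 3. Ifit3, of the family that binds foreign RNA, fell from 22.1, 18.9 and 34.2 FPKM to 10.9, 9.28 and 4.72 FPKM (−1.51, adjusted p = 0.0208, and 0.121 and 0.0974 without those libraries). Isg15, the ubiquitin-like modifier, fell from 65.2, 60.9 and 110 FPKM to 32.4, 33.9 and 13.1 FPKM (−1.60, adjusted p = 0.0291, and 0.148 and 0.123 without them). In each of the 3 genes MT replicate 3 was the lowest library and control replicate 3 the highest of its group. Irf7, the factor that amplifies the response, fell by 0.89 (adjusted p = 0.0144), and Rsad2, the antiviral enzyme viperin, fell by 1.67 (adjusted p = 0.0359). Irf7 did not pass without MT replicate 1, MT replicate 3 or control replicate 3 (0.0604 to 0.0824), and Rsad2 did not pass without any 1 library other than MT replicate 2 (0.0539 to 0.17). Ifit1bl1, of the IFIT family, fell by 1.57 (adjusted p = 0.0158, and 0.0946 without MT replicate 3 and 0.0729 without control replicate 3).

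Set against the mice exposed to TAI alone, 15 of the 22 interferon genes were lower and none was higher, with a median of −1.32, where 0.62% of all genes were lower. TAI alone had no member past the threshold against control mice in either direction, with a median of 0.44, where 1.2% of all genes were higher and 0.901% lower. The median over all genes between MT and MTAI was −0.09, and it was 0.0095 after quantile normalization and 0.0093 after scaling by median ratios. Gbp6, a guanylate-binding protein, was at 4.53, 6.16 and 5.54 FPKM in MT and at 21.1, 17.2 and 14.1 FPKM in MTAI (−1.52, adjusted p = 0.00439), with control libraries between them at 9.52, 11.2 and 12.8 FPKM. Trim30a was at 10.7, 14.5 and 5.97 FPKM against 33.1, 45.8 and 36.8 FPKM (−1.86, adjusted p = 0.0127), and Dhx58, a regulator of RNA sensing, differed by −1.54 (adjusted p = 0.0118). MT and MTAI did not overlap in Gbp6 or Trim30a. Over all genes MT lay wholly above MTAI in 5.82% and wholly below it in 19.6%. Against control mice Gbp6 fell by 0.93 (adjusted p = 0.0154), Trim30a by 1.19 (0.0423) and Dhx58 by 1.04 (0.032), and each of these calls was lost without MT replicate 1, MT replicate 3, control replicate 2 or control replicate 3 (0.0503 to 0.196), and for Trim30a also without control replicate 1 (0.0787).

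The number of interferon genes lower in MT than in control mice went from 12 to 6 after quantile normalization, to 4 after scaling by median ratios and to 2 without MT replicate 3 or without control replicate 3. Against TAI alone, 15 became 7 and 2 with these scalings, 1 without MT replicate 3 and 2 without MTAI replicate 2. With the replicate number as a block the counts were 2 and 3. The summed level of T cell markers was 217 to 276 FPKM in MT and 128 to 317 FPKM in control libraries, and its part in these results was not tested.

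**Figure D2:**
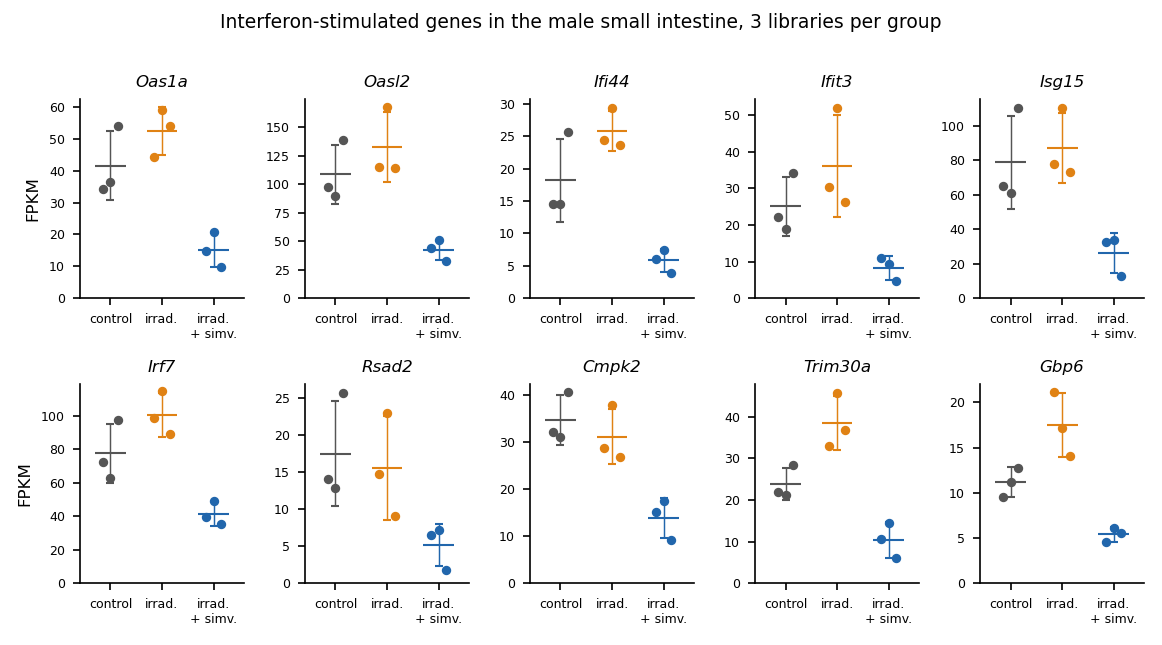
FPKM of interferon-induced genes in male control mice, mice after irradiation and mice after irradiation plus simvastatin. Points are single libraries (n = 3 per group), lines are means and bars are SD; Oas1a lay at 9.93 to 20.9 FPKM after irradiation plus simvastatin and at 34.3 FPKM or above in both other groups.

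Some genes of antigen presentation and of macrophages were higher in treated mice. Cd74, the invariant chain of MHC class II, was at 751, 613 and 450 FPKM in control libraries and at 961, 885 and 1032 FPKM in treated ones (0.69, adjusted p = 0.0132). H2-Ab1, a class II β chain, was at 274, 236 and 181 FPKM against 352, 341 and 363 FPKM (0.63, adjusted p = 0.0102), and H2-Aa, its α chain, was at 297, 249 and 137 FPKM against 457, 470 and 398 FPKM (1.02, adjusted p = 0.0164). The lowest value of each gene was that of control replicate 3. Cd74 did not pass without MT replicate 1, MT replicate 3 or control replicate 3 (0.0525 to 0.0685), and H2-Aa did not pass without MT replicate 1, MT replicate 2 or control replicate 3 (0.0573 to 0.0667). The class II list had 9 genes tested, of which 4 rose and 1 fell, where 2.74% of all genes rose and 2.63% fell. None of the 9 passed after TAI alone or between MT and MTAI. Against control mice only 1 rose without MT replicate 1 or without control replicate 3. In the same comparison 2 rose without MT replicate 3, and none rose with the compared groups alone. Without control replicate 3, 2 fell, and without any 1 of the other libraries none fell. The 1 that fell was H2-Ob, of the chaperone that B cells use, at 1.69, 3.36 and 0.486 FPKM against 0.191, 0.319 and 0.236 FPKM (−1.06, adjusted p = 0.0419, and 0.0821 to 0.171 without any 1 library other than control replicate 3), which was chosen after its values were seen.

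Of 14 macrophage and dendritic cell markers 4 rose and none fell, where 2.74% of all genes rose and 2.63% fell. None passed without MT replicate 1, MT replicate 3 or control replicate 3. Nor did any pass after TAI alone or between MT and MTAI. C1qa, a complement component made by tissue macrophages, was at 11.2, 8.44 and 3.36 FPKM in control mice and at 18.2, 14.2 and 18.2 FPKM in treated mice (1.16, adjusted p = 0.0497), and the call was lost without any 1 library other than control replicate 1 (0.072 to 0.187). The 4 hemoglobin genes tested all rose, Hba-a1 from 5.30, 3.10 and 2.37 FPKM to 14.3, 9.64 and 5.99 FPKM (1.24, adjusted p = 0.0129), and none passed without MT replicate 1, control replicate 2 or control replicate 3. The hemoglobin genes are near copies in pairs and come from red cells in the tissue, and their sum was 27.2 to 74.1 FPKM in MT and 13.2 to 30.4 FPKM in Mcon. Jchain, the joining chain of plasma cell IgA, rose from 474, 319 and 117 FPKM to 889, 668 and 620 FPKM (1.45, adjusted p = 0.0362, and 0.0566 to 0.15 without any 1 library other than control replicate 1). The B cell gene Ms4a1, which encodes CD20, was at 2.09, 6.63 and 0.542 FPKM in control libraries and at 0.160 to 0.233 FPKM in treated ones and did not pass (−1.47, adjusted p = 0.058), whereas Cr2, the complement receptor of follicular B cells, fell from 1.17, 2.86 and 0.340 FPKM to at most 0.0524 FPKM (−1.09, adjusted p = 0.0355, and 0.072 to 0.136 without any 1 library other than control replicate 3). Control replicate 2 was the highest for both. The part of these cells in the other results was not tested.

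Genes of epithelial defense moved apart from each other. Reg3b, an antibacterial lectin, was at 1734, 2725 and 1505 FPKM in control mice and at 3964, 5595 and 5895 FPKM in treated mice (1.40, adjusted p = 0.0347), and the call was lost without any 1 library other than control replicate 2 (0.0532 to 0.136). Reg3a was at 88.3, 90.1 and 93.4 FPKM against 45.1, 45.6 and 38.3 FPKM (−1.06, standard error 0.14, adjusted p = 0.000414) and kept its call without each library in turn. It was also lower in MT than in MTAI, whose libraries lay at 57.1, 78.8 and 72.2 FPKM (−0.67, adjusted p = 0.0436). Reg3g, at 1289 to 2215 FPKM against 2430 to 3095 FPKM, did not pass the test (0.72, adjusted p = 0.17). Mcpt1, a protease of mucosal mast cells, was at 1.64, 1.37 and 0.950 FPKM in control libraries and was listed at 0.0444, 0 and 0.229 FPKM in treated ones (−1.08, adjusted p = 0.000583). Ccl25, the chemokine that draws lymphocytes to the small intestine, fell from 405 to 439 FPKM to 309 to 338 FPKM (−0.36, adjusted p = 0.00343), and Mbl2, a mannose-binding lectin, rose from 10.3 to 23.6 FPKM to 48.3 to 59.6 FPKM (1.71, adjusted p = 0.0199, and 0.0615 to 0.0939 without MT replicate 1, MT replicate 3, control replicate 2 or control replicate 3).

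Cell contacts changed by smaller amounts. Of 18 adherens junction and desmosome genes 1 rose and 3 fell (1 fell without MT replicate 1 and 0 fell after scaling by median ratios), and of 18 tight junction genes none rose and 2 fell. Over all genes tested 2.74% rose and 2.63% fell. Cdh1, which encodes E-cadherin, was at 193, 193 and 194 FPKM in control libraries and at 145, 159 and 163 FPKM in treated ones (−0.31, adjusted p = 0.0097, and 0.0667 without MT replicate 1). Ptprf, a receptor phosphatase of cell contacts, fell from 84.8 to 97.5 FPKM to 59.7 to 69.4 FPKM (−0.49, adjusted p = 0.00541), and Tjp3, which encodes the tight junction scaffold ZO-3, fell by 0.44 (adjusted p = 0.019). Tjp3 did not pass without MT replicate 1, MT replicate 2, control replicate 1 or control replicate 3 (0.0638 to 0.104). Rock2, a kinase that acts on the actin cytoskeleton, rose from 38.4 to 39.8 FPKM to 47.1 to 50.3 FPKM (0.33, adjusted p = 0.0112, and 0.0575 without MT replicate 1).

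Simvastatin acts on cholesterol synthesis. Of 20 genes of that pathway none rose and 1 fell, where 2.74% of all genes rose and 2.63% fell, so that the counts are too small to tell the pathway from the rest. That gene was Mvd, which makes isopentenyl diphosphate, at 5.39 to 6.29 FPKM against 3.65 to 3.78 FPKM (−0.54, adjusted p = 0.0434), and its call was lost when any 1 library was left out (0.0651 to 0.14). Of 12 genes of SREBP control and LDL uptake 2 fell, Insig2, an anchor of the SREBP pathway (−0.46, adjusted p = 0.00843, and 0.0518 without MT replicate 3), and Mbtps1, the protease that cuts SREBP (−0.42, adjusted p = 0.0175). Mbtps1 did not pass without MT replicate 1, 2 or 3 or control replicate 3 (0.0531 to 0.0676). After TAI alone 2 of these 12 genes were lower than in control mice, where 0.901% of all genes were lower. None of the 20 synthesis genes passed after TAI alone. No gene of either list passed the test between MT and MTAI.

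Of 7 tested genes that the study also followed by other assays, 3 rose and none fell against unirradiated control mice. Among all genes tested, 2.74% rose and 2.63% fell in that comparison. After TAI alone 2 of the 7 rose and none fell, where 1.2% of all genes rose and 0.901% fell. None of the 7 passed the test between MT and MTAI. The study reported higher Glut1, MDR1 and Pgk1 with simvastatin in irradiated males, which is the MT against MTAI comparison. It measured IL-6, TNFα and LCN2 by ELISA, whereas the values here are RNA. Those that rose in MT against control mice were Abcb1a, Abcb1b and Pgk1, of which the first 2 are near copies that share reads. Slc2a1, the glucose transporter GLUT1, did not pass the test at 2.48 to 3.19 FPKM against 2.95 to 3.45 FPKM (0.11, adjusted p = 0.695), nor did Nfe2l2, which encodes NRF2 (0.02, adjusted p = 0.931), or Tnf (−0.38, adjusted p = 0.32). Pgk1, a glycolytic kinase, rose from 102, 126 and 124 FPKM to 152, 163 and 133 FPKM (0.34, adjusted p = 0.0399), and did not pass without MT replicate 1, MT replicate 2, control replicate 1 or control replicate 3 (0.0563 to 0.159). None of 16 NRF2 target genes passed, a count near that of all genes (2.74% higher and 2.63% lower). Il6 and Lcn2 were below the level needed to enter the test.

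With 2.74% of all genes higher and 2.63% lower, a list of this size is often without a call. Goblet cell markers (13 genes, median −0.09), stem cell markers (18 genes, −0.12), cell cycle genes (30 genes, −0.30), T cell markers (17 genes) and ribosomal proteins (30 genes) were among the 21 of 62 lists with none, which does not set them apart from other genes. Muc2, the mucin of goblet cells, was at 930, 700 and 597 FPKM in control libraries and at 602, 532 and 693 FPKM in treated ones (−0.27, adjusted p = 0.385). Axin2, a target of Wnt signalling in crypts, was at 19.3 to 21.5 FPKM against 8.40 to 14.6 FPKM (−0.81, adjusted p = 0.0817).

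**Figure D3:**
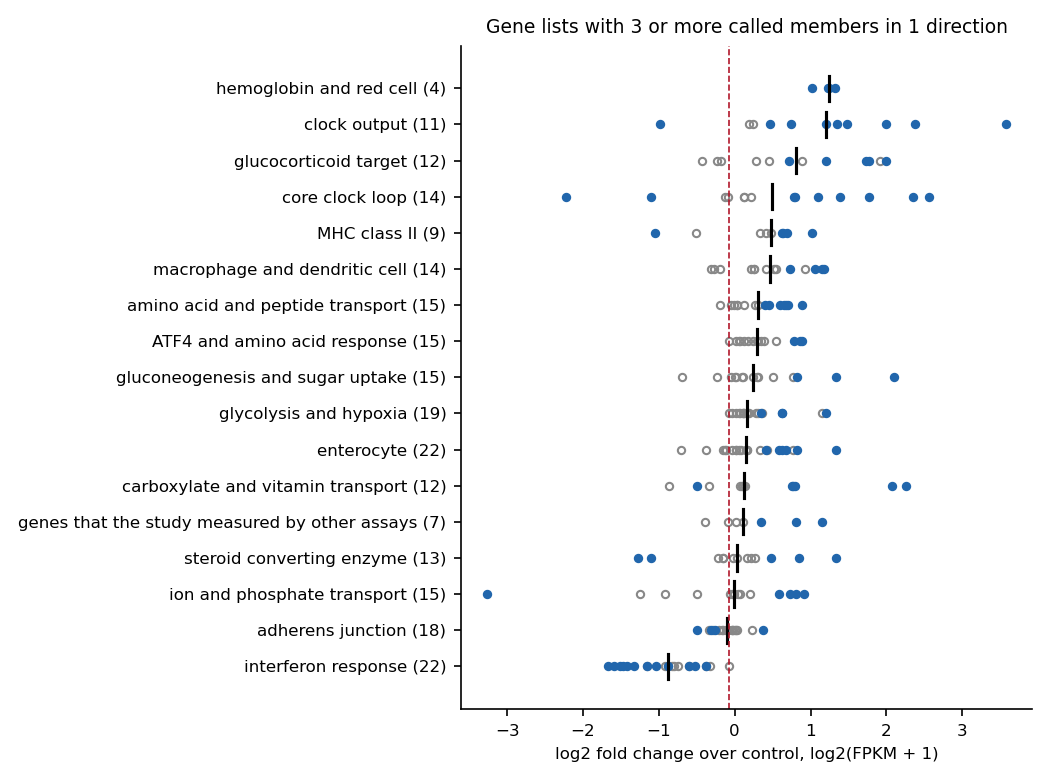
Log2 fold changes of irradiation plus simvastatin over control, on the log2(FPKM + 1) scale, for every tested member of the gene lists with at least 3 called members in 1 direction, the number tested in brackets. Points are genes, filled where past the threshold, black bars are list medians and the dashed line is the median of all genes (−0.07); the clock output list has its median at 1.21 and the interferon list at −0.88.

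The last comparison sets the change in treated males against that of female mice on a high-fat diet after TAI, which shares no library with it. In those females 343 genes (2.91%) were higher and 197 (1.67%) were lower than in female controls. Of the 323 genes that rose in MT, 33 also rose in females, 10.2% of the male and 9.62% of the female list, and of the 309 that fell 18 also fell, 5.83% of the male and 9.14% of the female list. The opposite direction was called for 14 genes higher in males and lower in females and for 12 lower in males and higher in females. Across the 11767 genes, which are not independent replicates, the Pearson correlation of the 2 changes was 0.061.

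The difference of the 2 changes was itself tested, and it was positive for 181 genes (1.54%) and negative for 270 (2.29%). Its median over all genes was −0.15, and 0.0146 after quantile normalization and 0.0085 after scaling by median ratios. It was called in the same direction for 111 of the 323 genes that rose in MT and for 89 of the 309 that fell. Those genes were picked by the male change, which is itself part of the difference. The shared direction thus follows in part from that choice. Per2 was at 8.92, 9.69 and 11.7 FPKM in female controls and at 9.35, 9.46 and 9.63 FPKM in females on the diet, so that the change was 2.43 larger in males (standard error 0.26, adjusted p = 0.000165). Dbp was at 24.4, 9.19 and 25.6 FPKM in female controls and at 30.0, 37.3 and 30.7 FPKM after TAI and the diet, a difference of the changes of 2.76 (adjusted p = 0.00303). The level of Dbp in the female controls thus lay above the 3.35 to 4.01 FPKM of the male controls.

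Several transporters and immune genes had opposite signs in the 2 sexes. Slc15a1 rose in males and fell in females (0.68 and −0.51), a difference of 1.18 (adjusted p = 0.00049), and Slc7a15 did likewise (0.60 and −0.65), a difference of 1.24 (adjusted p = 0.00049). Aadac fell in males and rose in females (−1.16 and 1.02), a difference of −2.18 (adjusted p = 0.00158). Mbl2 was at 40.8, 33.3 and 31.1 FPKM in female controls and at 4.65, 3.08 and 2.71 FPKM after TAI and the diet, and the difference from the male rise was 4.73 (standard error 0.57, adjusted p = 0.000396). Tm4sf4, a tetraspan membrane protein, was at 24.2 to 31.0 FPKM in male controls and at 22.1 to 26.5 FPKM in treated males, whereas it rose from 26.3, 40.7 and 30.4 FPKM to 130, 170 and 112 FPKM in females (difference −2.17, adjusted p = 0.00141). Sex, diet and drug differ together between the 2 changes and cannot be told apart.

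**Figure D4:**
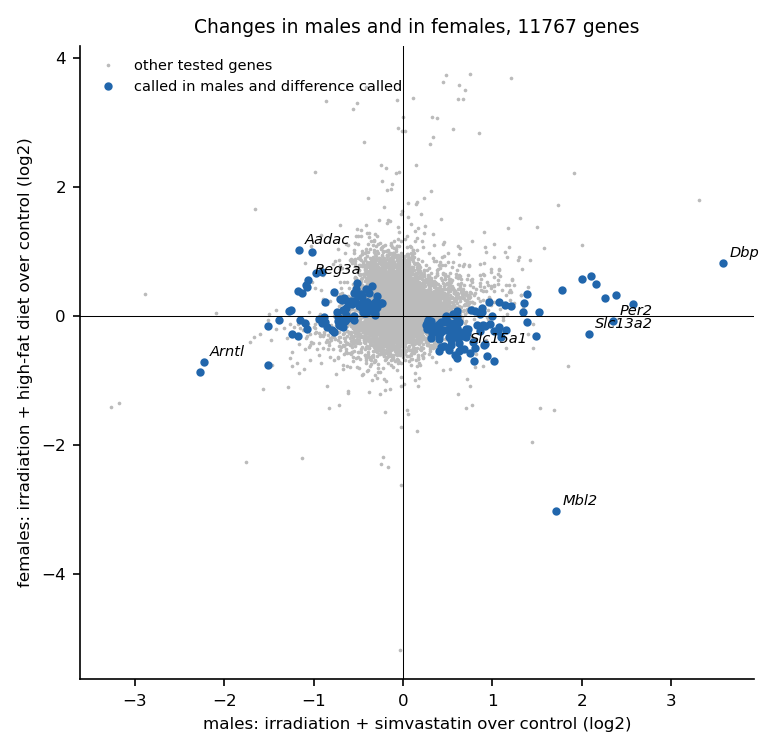
Log2 fold change of irradiation plus simvastatin over control in males (x axis) against that of irradiation plus high-fat diet over control in females (y axis), 1 point per gene for 11767 genes. Coloured points are genes called in males whose 2 changes also differed at an adjusted p under 0.05; Dbp, Per2 and Mbl2 lie to the right with male changes of 3.58, 2.35 and 1.71.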

How the data were processed

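The authors sequenced mRNA of small intestine from 18 mice in 6 groups of 3, with RNA taken up in Trizol and libraries made with a NEBNext Ultra RNA kit. The values are FPKM per transcript as deposited, made by the authors, and since these hold no read totals no count test could be used. Tools in the submitters' processing notes are Bowtie2 2.2.8, Cuffdiff 2.1.1, StringTie 1.3.1 and HISAT2, with no roles. The sources used here do not give the genome build.

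FPKM of 55869 transcripts were summed by gene symbol (21928 symbols, 25 with more than 1 gene identifier), and 11767 genes that reached 1 FPKM in 3 or more libraries were tested, with 10161 left out. Groups came from the sample labels. One limma 3.58.1 model (R 4.3.3) was fitted to log2(FPKM + 1) of all 18 libraries with the mean-variance trend (12 residual degrees of freedom), and genes with a Benjamini-Hochberg adjusted p under 0.05 were called. The contrasts were MT minus Mcon, MT minus MTAI, MTAI minus Mcon, Ffat minus Fcon, and MT minus Mcon less Ffat minus Fcon. The model was tested on simulated data. Alternatives were other pseudocounts, filters, scalings, sample sets, trend, weights, a replicate block, transcripts in place of genes, and leaving out each library.

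The groups compared, the 62 gene lists and the tests were chosen with earlier results of these data known. The named genes are the 15 largest changes in each direction without predicted genes, up to 4 called members of each list by p and up to 2 others where fewer passed, genes named in the study, the 8 called genes with the largest MT minus MTAI difference and the 6 with the largest difference from the female change in each direction, of which those of the described lists are given. Promoter windows come from RefSeq (GRCm38.p6). Some results are not reported here.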

Additional observations from a re-analysis of the deposited data

Results flagged for a closer look

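For 43 of the genes named that also differed between treated and control males, the change of irradiated males given simvastatin over male controls differed from the change of irradiated females on a high-fat diet over female controls, by the test of that difference in the limma model (adjusted p under 0.05). Across all genes tested the difference was positive in 1.54% and negative in 2.29%. The genes named were chosen by their male change, which is part of the difference, and some by the difference itself. Their number is thus set in part by the choice and is not a result. Sex and treatment differ together here. Values are differences of the 2 log2 changes, male minus female.

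Among clock genes the difference was 2.76 for Dbp, 2.43 for Per2, 2.38 for Per3, 2.06 for Tef, 1.80 for Hlf, 1.42 for Ciart, 1.42 for Cry2, 1.37 for Per1, 1.28 for Wee1, 1.05 for Usp2, 1.03 for Nr1d2 and −1.52 for Arntl.

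Among transporters and brush border genes it was 2.36 for Slc13a2, 1.97 for Slc13a1, 1.31 for Slc5a12, 1.24 for Slc7a15, 1.18 for Slc15a1, 1.03 for Slc6a19, 0.96 for Slc5a1, 0.93 for Slc7a8, 0.77 for Atp1b1, 0.65 for Enpep and −1.33 for Slc17a4.

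Among enzymes and metabolic genes it was 1.65 for Nat8f5, 1.48 for Pck1, 1.34 for Cyp27a1, 1.16 for Herpud1, 0.98 for Tsc22d3, −0.78 for Mvd, −0.99 for Hsd17b6, −1.36 for Hsd17b2 and −2.18 for Aadac.

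Among immune and defense genes it was 4.73 for Mbl2, 1.71 for H2-Aa, 1.05 for H2-Ab1, 0.996 for Cd74, −1.57 for Mcpt1 and −1.62 for Reg3a. For the remaining genes it was 0.58 for Rock2, −0.36 for Cdh1, −0.75 for Dab1, −1.36 for Bok and −1.41 for Tmem252. Single samples that stood far from their group were not looked for, since groups of 3 are too small for such a test.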

How the results depend on the processing

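Against 323 genes higher and 309 lower in MT than in Mcon, transcripts in place of genes gave 199 and 175 gene symbols, and leaving out 1 library gave 173 to 322 and 157 to 247. The lower genes numbered 179 with median ratio scaling and 202 with the compared groups alone. Counts changed by over 1.5 times without MT replicate 1 (173 and 157), MT replicate 3 (182 and 157), control replicate 2 (211 and 201) or control replicate 3 (184 and 196), and for the lower genes without control replicate 1 (198). The 82 genes that differed between MT and MTAI became 45 with quantile normalization, 21 with median ratio scaling, 151 with groups weighted by spread, 44 with transcripts and 11 (without MT replicate 3) to 71 with 1 library left out, among them 14 without MTAI replicate 2, 32 without MT replicate 1 and 50 without MTAI replicate 3. The 451 genes whose change differed from the female change became 1445 with the compared groups alone, 1498 with groups weighted by spread, 189 with transcripts and 213 to 601 with 1 library left out. Fewer libraries or fewer degrees of freedom entered some fits. The root mean square SD of the log2 values was 0.359 in females after TAI alone (FTAI), a group outside these contrasts. It was 0.173 to 0.242 in the other groups. The part of these points in the shifts was not tested.

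Replicate numbers are shared between the groups but name no common animal or batch. Deviations of samples with the same number had correlations of 0.3217, 0.3225 and −0.0137, and control replicate 3 correlated best with MT replicate 2 (0.0374). With the replicate number as a block, 237 genes were higher, 214 were lower, 34 differed between MT and MTAI and 318 differed from the female change, and 15 of the 94 named calls were lost.

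Of the 94 called genes named, 66 kept the call under all 10 settings other than leaving out a library, 62 kept it without each library in turn, and none changed direction. Calls lost numbered 16 with the compared groups alone, 11 with median ratio scaling, 11 with no filter, 7 with the male series alone, 7 with quantile normalization, 2 with no intensity trend, 2 with a pseudocount of 0.1, and 0 with a filter of 5 FPKM or with groups weighted by spread. Among genes that were not called, Nfe2l2 changed sign without MT replicate 1 (−0.0145) and without control replicate 1 (−0.0561), its range with 1 library left out being −0.0561 to 0.0864, and Clock without control replicate 2 (0.0036), its range being −0.2113 to 0.0036.

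Depth is known only in relative terms, and the low FPKM of genes such as Ciart, Mcpt1 and Cr2 rest on few fragments.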
